A study of Mus musculus with 16 samples.

Results

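NF-kB, inflammasome and cytokine genes were followed in quadriceps muscle of control and Mfn2KO mice at 6 and 22 months of age. The 10 genes were chosen by symbol: the NF-kB subunits Nfkb1, Nfkb2, Rela and Relb, the inhibitor Nfkbia, the adaptor Myd88, the cytokines Tnf and Il1b, and the inflammasome genes Nlrp3 and Casp1. Of these, 9 had a probe set that carried their symbol alone, 1 probe set each, out of 17097 genes measured in that way. Nfkb1 was not analysed here. No second probe set was at hand as a check for any of the 9.

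Each of the 4 groups held 4 mice, with 1 array per mouse: controls of 6 months (young control), Mfn2KO of 6 months (young KO), controls of 22 months (old control) and Mfn2KO of 22 months (old KO). Mitofusin 2, the product of Mfn2, fuses the outer membranes of mitochondria and tethers them to the endoplasmic reticulum. The labels state a knockout and the tissue, and leave unsaid in which cells the gene was deleted or which promoter drove the deletion. The labels also give a family for each mouse. Families A and B hold mice of 22 months only, and C and D hold mice of 6 months only. Mice labelled Other are of both ages. Family B holds controls only, and most mice of family A are KO. Family and genotype are therefore partly tied at 22 months. All mice had standard chow, and 25 ng of total RNA per sample was amplified as a whole transcriptome before hybridisation. The Mfn2 probe set read 8.80 ± 0.60 (SD, n = 4) in young controls, 8.45 ± 0.07 in young KO, 8.68 ± 0.36 in old controls and 7.74 ± 0.96 in old KO. Its difference between KO and control was -0.34 (SE 0.38) at 6 months. At 22 months it was -0.94 (SE 0.38), with a limma unadjusted p of 0.0254 and an adjusted p of 1.0. Old KO mice, from 6.32 to 8.32, all lay under old controls, from 8.34 to 9.18, and 0.907% of all genes were apart in that comparison. Whether the probe set lies inside the deleted part is not given in the sources used here.

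In resting cells NF-kB dimers are held in the cytoplasm by IkB proteins such as the product of Nfkbia. Signals from toll-like and interleukin-1 receptors, which pass through Myd88, and from the tumour necrosis factor receptor lead to destruction of the inhibitor and entry of the dimers into the nucleus, where they switch on Nfkbia itself, Nfkb2, Tnf, Il1b and Nlrp3. Nlrp3 then assembles with an adaptor and Casp1 into the inflammasome, in which Casp1 cuts the precursor of Il1b into the secreted cytokine. In muscle most of this machinery is known from macrophages and other immune cells, while Rela and Nfkbia are made in almost every cell type. In whole muscle, fewer cells of a type and less RNA per cell cannot be told apart.

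Promoter sequence bears on how these genes are wired, since NF-kB acts on several of its own members. RefSeq promoter windows of build GRCm38.p6, 250 bases before each start, were matched for 8 of the 10 genes and gave 11 windows. The kappa B consensus, the DNA motif that NF-kB dimers bind, was searched on both strands and was found in 5 windows of 3 genes, Nfkb2, Nfkbia and Nlrp3. Among 32851 windows of all genes, 7.25% held it. A looser form, GGGNNNNNCC, of which every kappa B match on the same strand is a case, was found in 6 of the 8 members and in 45.8% of all windows. Counted by gene, 8.23% of 27025 genes held the consensus and 48.7% the looser form in a window. The windows of Nfkb2 (chr19:46304487-46304736, plus strand) and of Nfkbia (chr12:55492648-55492897, minus strand) are shown because they hold the matches closest to a start. Capitals mark kappa B matches, and each sequence runs 5′ to 3′ on the strand of its gene and ends at the last base before the start.
Nfkb2: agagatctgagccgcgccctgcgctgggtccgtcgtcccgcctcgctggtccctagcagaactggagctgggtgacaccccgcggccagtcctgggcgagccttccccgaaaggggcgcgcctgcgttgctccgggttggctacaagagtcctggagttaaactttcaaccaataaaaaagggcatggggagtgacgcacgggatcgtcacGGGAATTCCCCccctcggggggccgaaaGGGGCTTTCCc
Nfkbia: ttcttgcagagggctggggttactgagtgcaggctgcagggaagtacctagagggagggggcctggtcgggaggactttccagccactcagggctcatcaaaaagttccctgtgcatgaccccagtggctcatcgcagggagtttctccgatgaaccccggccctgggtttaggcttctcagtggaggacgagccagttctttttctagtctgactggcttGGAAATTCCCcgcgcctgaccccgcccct
The Nfkb2 window held 4 matches that fuse into a pair of stretches, one from 29 to 39 bases and one from 2 to 11 bases before the start. The Nfkbia window held 1 match, 20 to 29 bases before the start. Of the 2 Nlrp3 windows, the one further upstream held the stretch GGGAACCCCC, which matches on both strands, 177 to 186 bases before its start. No kappa B match was found in these windows of Rela, Myd88, Tnf, Il1b or Casp1, which says only that those letters are not in these windows.

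How far each gene rises above background on these arrays sets what its values can show. The 41 olfactory receptor genes served as reference, and the 95th percentile of their mean log2 signal over 16 arrays was 4.63. That muscle makes little or none of them was assumed and not tested. Of all genes, 38.4% lay at or under that level. Rela (mean 6.29), Nfkbia (mean 7.69) and Nfkb2 (mean 5.91) lay clearly above it. Tnf (4.89), Relb (4.87), Il1b (4.82) and Myd88 (4.78) lay above it by a small margin, so each is close to background. Casp1 (4.01) and Nlrp3 (4.16) lay under it, and Casp1 did so in each of the 16 arrays. Against a second reference, 28 genes restricted to tissues other than muscle with a 95th percentile of 5.98, Rela and Nfkbia were the 2 of 9 that remained above. Against the 75th percentile of the olfactory receptor genes, 3.89, all 9 means lay above, those of Casp1 and Nlrp3 by the least. Signals of different probe sets also depend on the probes, so levels of the members are not ranked here.

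No member rose or fell by the adjusted test in any comparison. The comparisons were Mfn2KO against control at each age, 22 against 6 months in each genotype, the difference between these differences, and both effects averaged over the other factor, 7 in all. Limma with Benjamini-Hochberg adjustment over all 17097 genes called 0 of the 63 member values, and 0 of the 63 had an unadjusted p under 0.05. Over all genes, 0% were called for genotype at 6 months, at 22 months or over both ages, 0% for age in controls and 0% for the difference between differences. For age in Mfn2KO 0.0175% were called, and for age over both genotypes 0.0585%. At these background shares, 0 of 9 does not set the members apart from other genes. The genes with an unadjusted p under 0.05 numbered 291 (1.7%) for genotype at 6 months, 195 (1.14%) at 22 months and 265 (1.55%) over both ages. They numbered 363 (2.12%) for age in controls, 443 (2.59%) in Mfn2KO and 601 (3.52%) over both genotypes, and 194 (1.13%) for the difference between differences.

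**Figure D1:**
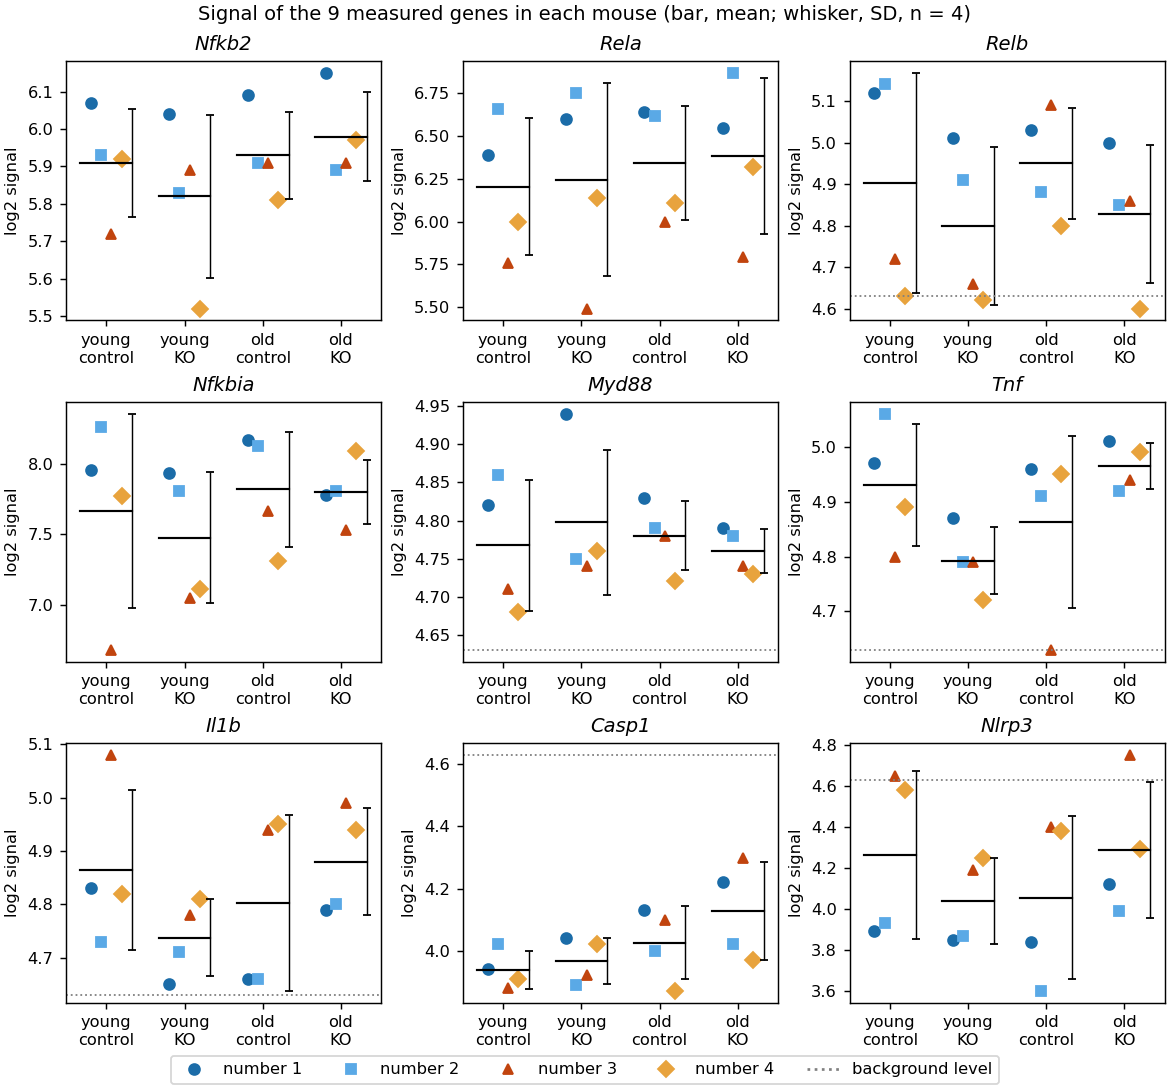
Log2 signal (y axis) of the 9 measured members in each of the 16 mice, by group (x axis), with 1 panel per gene, the group mean as a bar, the SD (n = 4) as a whisker, and the replicate number as the marker. The dotted line is the background level of 4.63, drawn where it falls near the values: Casp1 lies under it in all mice, and Nlrp3 exceeds it in 2.

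Tnf, a cytokine released by macrophages and other cells that activates NF-kB, came closest to separating groups. At 6 months its log2 signal was 4.97, 5.06, 4.80 and 4.89 in controls and 4.87, 4.79, 4.79 and 4.72 in Mfn2KO. At 22 months it was 4.96, 4.91, 4.63 and 4.95 in controls and 5.01, 4.92, 4.94 and 4.99 in Mfn2KO. Young and old KO did not overlap, with all 4 old KO mice above all 4 young KO mice, while the control groups of both ages overlapped with each other and with their KO group. Tnf was the 1 of 9 members whose groups were apart in that comparison, where 1.8% of all genes were. In the other comparisons of groups none of the 9 was apart, where 1.36% of all genes were apart for genotype at 6 months, 0.907% for genotype at 22 months and 1.52% for age in controls. Mfn2KO minus control was -0.14 (SE 0.10) at 6 months and 0.11 (SE 0.10) at 22 months. The change of the genotype difference from 6 to 22 months was 0.24 (SE 0.14), with a limma unadjusted p of 0.0922 and an adjusted p of 1.0. Old control mouse 3, at 4.63, lies at the background level and below its 3 group mates. Without it that change was 0.17 (SE 0.12), and the genotype difference at 22 months was 0.03 (SE 0.09) instead of 0.11.

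Il1b, the precursor of the fever cytokine interleukin-1 beta, read 4.83, 4.73, 5.08 and 4.82 in young controls and 4.65, 4.71, 4.78 and 4.81 in young KO. In old controls it read 4.66, 4.66, 4.94 and 4.95, and in old KO 4.79, 4.80, 4.99 and 4.94. The groups overlapped, and the highest mouse was young control mouse 3. Its difference between old and young mice was -0.06 (SE 0.11) in controls and 0.14 (SE 0.11) in Mfn2KO. The 95% intervals, from -0.28 to 0.16 and from -0.08 to 0.36, both include 0. Within replicate numbers Il1b was higher with age in 4 of 4 numbers of Mfn2KO, by 0.13, 0.10, 0.21 and 0.13, with a limma unadjusted p of 0.0624 and an adjusted p of 0.512 with the block. It was lower in Mfn2KO than in control in 4 of 4 numbers at 6 months, with an unadjusted p of 0.0916 and an adjusted p of 0.606. One sign in 4 of 4 numbers was common, with 19.7% of all genes for age in Mfn2KO and 18.6% for genotype at 6 months.

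Myd88, the adaptor that carries signals from toll-like and interleukin-1 receptors, varied least of the 9, from 4.68 to 4.94 over all mice. Young controls read 4.82, 4.86, 4.71 and 4.68, and young KO 4.94, 4.75, 4.74 and 4.76. Old controls read 4.83, 4.79, 4.78 and 4.72, and old KO 4.79, 4.78, 4.74 and 4.73. Young KO mouse 1 stood above the rest and all groups overlapped. The difference with age over both genotypes was -0.01, with a 95% interval from -0.14 to 0.11, and that with genotype over both ages was 0.00, from -0.12 to 0.13. These intervals leave room for a fold between 0.910 and 1.08 with age and between 0.920 and 1.09 with genotype, for a probe set close to background.

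Nfkbia, the inhibitor that NF-kB itself induces, had the widest spread of the 9. Young controls read 7.96, 8.26, 6.68 and 7.77, and young KO 7.94, 7.81, 7.05 and 7.11. Old controls read 8.17, 8.13, 7.67 and 7.31, and old KO 7.78, 7.81, 7.53 and 8.09. All groups overlapped, and the lowest mouse, young control mouse 3, stood more than 1 log2 unit below its group mates. The difference with age over both genotypes was 0.24 (SE 0.22), with a 95% interval from -0.23 to 0.70, and that with genotype over both ages was -0.10 (SE 0.22), from -0.57 to 0.36. Without young control mouse 3 the difference with age over both genotypes was 0.07 (SE 0.17), and the genotype difference at 6 months moved from -0.19 (SE 0.31) to -0.52 (SE 0.26).

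Rela, the activating subunit of the most common NF-kB dimer, read 6.39, 6.66, 5.76 and 6.00 in young controls and 6.60, 6.75, 5.49 and 6.14 in young KO. In old controls it read 6.64, 6.62, 6.00 and 6.11, and in old KO 6.55, 6.87, 5.79 and 6.32. Within each group mice 1 and 2 were high and mice 3 and 4 low, and the groups overlapped almost fully. The difference was 0.14 (SE 0.21) with age over both genotypes and 0.05 (SE 0.21) with genotype over both ages.

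Relb and Nfkb2 form the dimer of the alternative NF-kB pathway, in which the Nfkb2 precursor is cut to its active form. Relb read 5.12, 5.14, 4.72 and 4.63 in young controls and 5.01, 4.91, 4.66 and 4.62 in young KO. In old mice it read 5.03, 4.88, 5.09 and 4.80 in controls and 5.0, 4.85, 4.86 and 4.60 in Mfn2KO. Groups overlapped, but the KO mouse was below the control mouse of the same replicate number in 4 of 4 numbers at 6 months and in 4 of 4 at 22 months. Of all genes, 1.39% had the same sign in all 8 such pairs. The differences ran from -0.23 to -0.01 at 6 months and from -0.23 to -0.03 at 22 months, and their mean over both ages was -0.11 (SE 0.10). With the replicate number as a block the limma unadjusted p of that mean was 0.110 and the adjusted p was 0.670, so the lower Relb did not pass the test.

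Nfkb2 read 6.07, 5.93, 5.72 and 5.92 in young controls and 6.04, 5.83, 5.89 and 5.52 in young KO. In old controls it read 6.09, 5.91, 5.91 and 5.81, and in old KO 6.15, 5.89, 5.91 and 5.97. The groups overlapped, and young KO mouse 4 was the lowest of all 16. Nfkb2 differed by 0.09 (SE 0.09) with age over both genotypes, or 0.04 (SE 0.09) without that mouse, and by -0.02 (SE 0.09) with genotype over both ages.

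Casp1, the protease of the inflammasome, read 3.94, 4.02, 3.88 and 3.91 in young controls and 4.04, 3.89, 3.92 and 4.02 in young KO. In old controls it read 4.13, 4.0, 4.10 and 3.87, and in old KO 4.22, 4.02, 4.30 and 3.97. The highest mice were old KO mice 1 and 3, and each pair of groups overlapped. The difference with age over both genotypes was 0.12 (SE 0.06), with a 95% interval from -0.01 to 0.26 and a limma adjusted p of 1.0. Without old KO mouse 3 it was 0.09 (SE 0.06). All 16 values lie under the background level, so by that level the probe set does not show that Casp1 was detected.

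Nlrp3, the sensor that starts inflammasome assembly, read 3.89, 3.93, 4.65 and 4.58 in young controls and 3.85, 3.87, 4.19 and 4.25 in young KO. In old controls it read 3.84, 3.60, 4.40 and 4.38, and in old KO 4.12, 3.99, 4.75 and 4.29. In each group mice 1 and 2 were low and mice 3 and 4 high, and 2 of the 16 values exceeded the background level. The difference with age was -0.21 in controls and 0.25 in Mfn2KO (SE 0.22 each). The difference between them was 0.45 (SE 0.32), with a limma unadjusted p of 0.172 and an adjusted p of 1.0.

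**Figure D2:**
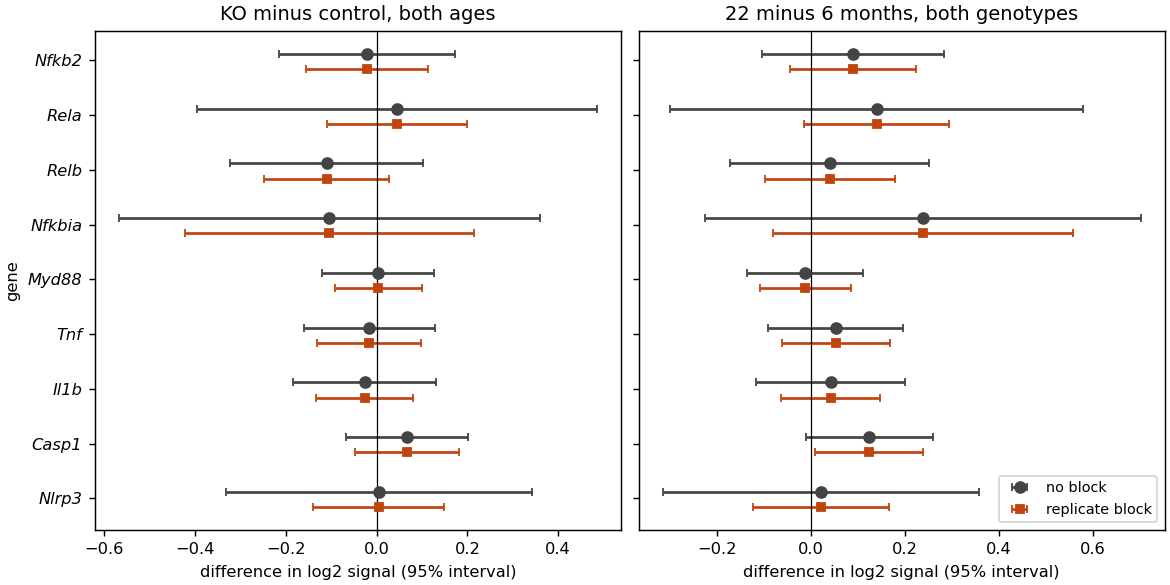
Differences in log2 signal (x axis) of the 9 members with 95% limma intervals for Mfn2KO minus control over both ages (left) and 22 minus 6 months over both genotypes (right), without the replicate number as a block (circles) and with it (squares). Every interval includes 0 except that of Casp1 for age with the block, and the block shortens the intervals of Rela and Nlrp3 most.

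Replicate numbers ran across the groups in these data, so comparisons within a number are given as well. The labels number the mice 1 to 4 in each group and do not say what a number stands for. Over all genes, deviations from the group mean correlated between arrays of the same number in each of 24 pairs. Pearson r ran from 0.289 to 0.780 with a median of 0.677. Over 72 pairs of different number r ran from -0.764 to 0.725 with a median of -0.455. Deviations in a group sum to 0, so positive r within numbers pushes r between numbers below 0. The ranges overlap, so these r values do not set all 4 numbers apart from one another. Genes are not independent replicates, and these r values describe the arrays. Adding the number as a block lowered the median standard error of the members from 0.129 to 0.0887 in the comparisons of groups, and that of all genes from 0.157 to 0.0923.

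Rela and Nlrp3 carried this pattern most plainly and in opposite directions. Rela was 0.68 lower in mice 3 and 4 than in mice 1 and 2 on the log2 scale, from 5.49 to 6.32 against 6.39 to 6.87. Nlrp3 was 0.55 higher in mice 3 and 4, from 4.19 to 4.75 against 3.60 to 4.12. Neither range overlapped, over the 8 mice on each side. Nfkbia was lower by 0.58 and Relb by 0.24 in mice 3 and 4, and Il1b was higher by 0.18, each with overlapping ranges. The other differences were -0.16 for Nfkb2, -0.10 for Tnf, -0.09 for Myd88 and -0.04 for Casp1. Of all genes, 26.1% had ranges apart in the same way, which is the background for 2 of 9 members. The sign followed the signal level: the median difference of all genes was 0.17 among genes with a mean under 4 and -0.43 among those between 6 and 7. What the difference between numbers stems from was not tested.

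**Figure D3:**
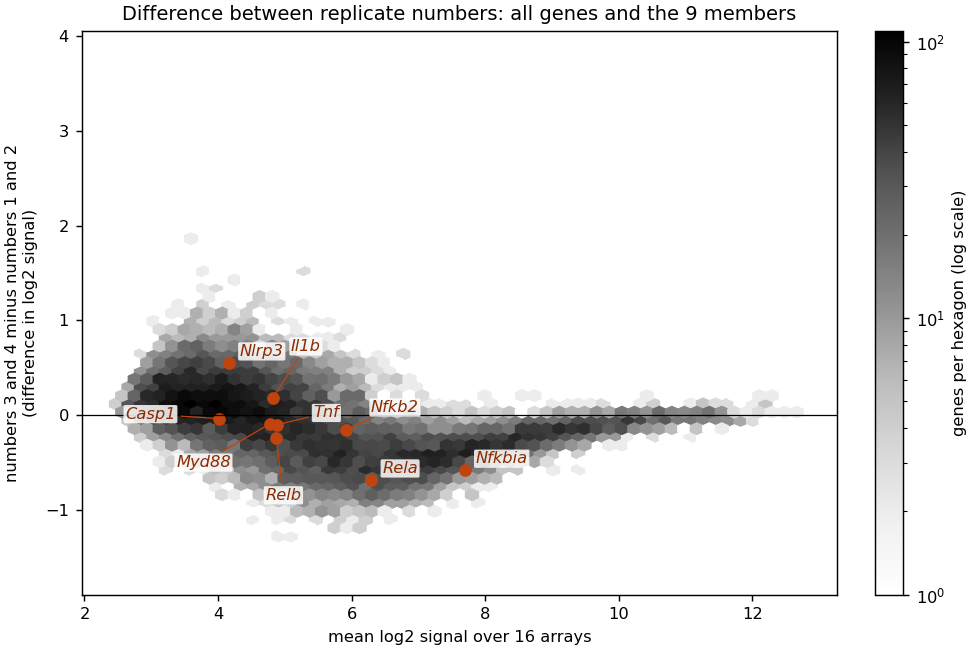
Difference in log2 signal between mice 3 and 4 and mice 1 and 2 (y axis) against mean log2 signal over 16 arrays (x axis) for all genes, as hexagons shaded by number of genes on a log scale, with the 9 members as points. Nlrp3 lies at 0.55 among genes of low signal and Rela at -0.68 among genes of middle signal, both inside the cloud of all genes.

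Within replicate numbers, Nlrp3 differed with age in opposite directions in the 2 genotypes. Old minus young was -0.04, -0.33, -0.25 and -0.21 in controls of numbers 1 to 4, and 0.27, 0.12, 0.56 and 0.04 in Mfn2KO. It was thus lower with age in 4 of 4 numbers in controls and higher in 4 of 4 in Mfn2KO, a pattern that 1.13% of all genes showed in one direction or the other. With the block the difference between differences was 0.45 (SE 0.13), the limma unadjusted p was 0.00453 and the adjusted p was 0.641, where 7.24% of all genes had an unadjusted p under 0.05 and 0% were called. Leaving out each array in turn with the block was done for Nlrp3 alone, after the data were seen. It gave values from 0.37 to 0.55 with limma unadjusted p from 0.000635 to 0.0137, and none was called after adjustment. These runs share most of their arrays, so they add no separate support. Each of families A to D holds mice of 1 age only, so family and age are largely tied, and only mice labelled Other span both ages. With family and the block both in the fit, the difference between differences was 0.39 (SE 0.19). Its limma unadjusted p was 0.065, no longer under 0.05. Of the 16 values behind it, 14 lie under the background level.

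Tnf showed the matching pattern for genotype. Mfn2KO minus control at 6 months was -0.11, -0.27, 0.00 and -0.17 in numbers 1 to 4, where the value of number 3 was below 0 by 0.004, and at 22 months it was 0.05, 0.01, 0.31 and 0.05. The sign was the opposite at the 2 ages in every number, as for 1.25% of all genes, and 4 of the 8 differences were 0.05 or smaller in size after rounding. With the block, the limma unadjusted p of the difference between differences was 0.0389 and the adjusted p was 0.673. Tnf in old against young KO, 0.17 (SE 0.08 with the block), had an unadjusted p of 0.0373 and an adjusted p of 0.450, where 10.2% of all genes had an unadjusted p under 0.05. The largest of the genotype differences, in number 3 at 22 months, rests on the old control mouse at 4.63.

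With the block in every comparison, 8 of the 63 member values had an unadjusted p under 0.05 and 0 were called. They were 5 of Nlrp3, 2 of Tnf and the age difference of Casp1 over both genotypes (unadjusted p 0.0363, adjusted p 0.383, limma). The background of called genes with the block was 0.0468% for age in controls, 0.0234% for age in Mfn2KO, 0.579% for age over both genotypes and 0% in the other 4 comparisons. The share of all genes with an unadjusted p under 0.05 was 9.43% for genotype at 6 months, 6.62% at 22 months and 8.47% over both ages. It was 9.64% for age in controls, 10.2% in Mfn2KO, 11.7% over both genotypes and 7.24% for the difference between differences, so that 8 of 63 is near the background.

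**Figure D4:**
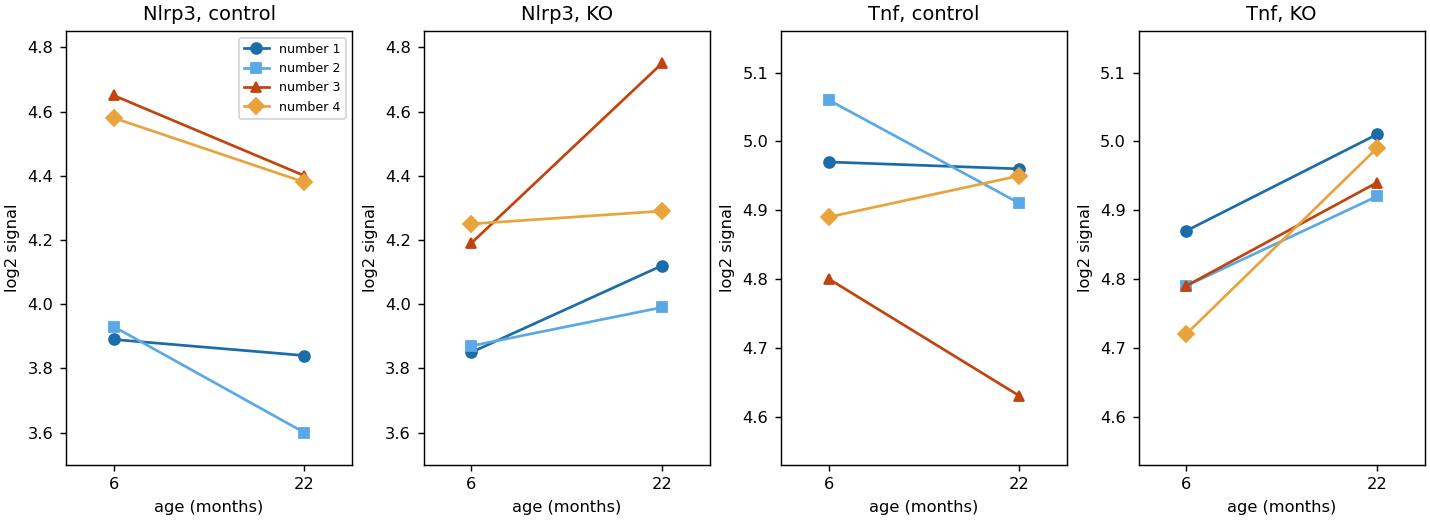
Log2 signal (y axis) of Nlrp3 and Tnf at 6 and 22 months (x axis) in controls and Mfn2KO, with lines that join different mice of the same replicate number. Nlrp3 in numbers 3 and 4 lies above numbers 1 and 2, and its 4 lines slope down in controls and up in Mfn2KO.

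Over the 9 members together, 8 had a higher mean in old than in young mice over both genotypes, with a median difference of 0.05 against -0.01 for all genes, of which 45.5% were higher. For Mfn2KO against control over both ages, 4 of 9 were higher and the median was -0.02. The 95% intervals of the averaged comparisons reached from -0.32 to 0.70 for age and from -0.57 to 0.49 for genotype over all 9 members. These outer bounds are set by Nfkbia, Nlrp3 and Rela, and Myd88 had the narrowest intervals of the 9.

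Genes of the wider pathway were counted in the same way. Of 93 other genes of NF-kB signalling, its receptors, the inflammasome and its targets, 81 were measured and 42 lay above background. In each of the 7 comparisons limma called 0 of the 81, both without and with the block. With the block, 7 were higher and 2 lower at an unadjusted p under 0.05 for age over both genotypes, 11.1% of the list against 11.7% of all genes.

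Among upstream receptors and adaptors, 20 of 23 were measured. Tirap, which bridges toll-like receptors to Myd88, was -0.63 (SE 0.25) in Mfn2KO against control at 6 months and -0.49 (SE 0.25) at 22 months. Averaged, Tirap differed by -0.56 (SE 0.18), with a limma unadjusted p of 0.00688 and adjusted p of 1.0, or 0.335 with the block. Il1r1, the signalling receptor of interleukin-1, differed by 0.26 (SE 0.09) with age over both genotypes, with an adjusted p of 1.0, or 0.170 with the block, at a mean of 4.51, under background. Tlr4, the receptor for bacterial lipopolysaccharide, differed by 0.25 (SE 0.13) with genotype at 22 months, with an adjusted p of 1.0.

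Among kinases, adaptors and further inhibitors of NF-kB, 21 of 25 were measured and 16 lay above background. Cyld, a deubiquitinase that restrains NF-kB, differed by 0.36 (SE 0.30) with age in controls and by 0.22 (SE 0.21) over both genotypes. With the block its standard error over both genotypes was 0.06 and the adjusted p 0.168. Irak2, a kinase downstream of Myd88, differed by -0.21 (SE 0.09) with age over both genotypes, with an adjusted p of 1.0, or 0.268 with the block. Neither passed the adjusted test.

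Among other inflammasome genes, 12 of 17 were measured and 6 lay above background. P2rx7, the ATP-gated channel that triggers Nlrp3, differed by 0.18 (SE 0.10) with age in controls. Txnip, a thioredoxin inhibitor that is abundant in muscle, read a mean of 11.4 and differed by 0.09 (SE 0.06) with genotype over both ages. Casp4, which senses lipopolysaccharide inside cells, differed by 0.09 (SE 0.07) with age over both genotypes. All 3 had adjusted p of 1.0.

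Of 28 genes known as NF-kB targets, all 28 were measured and 11 lay above background. For genotype at 6 months 9 were higher and 19 lower, with a median of -0.05 against -0.01 for all genes, of which 47.8% were higher. The genes of other tissues did likewise, with 7 higher and 21 lower and a median of -0.07. At 22 months 15 targets were higher and 13 lower. Cxcl10, an interferon-induced chemokine, differed by 0.41 (SE 0.15) with genotype at 22 months, at a mean of 3.45, under background. Bcl2a1a, an anti-apoptotic gene of blood cells, differed by 0.42 (SE 0.19) with age in Mfn2KO, or 0.42 (SE 0.10) with the block and an adjusted p of 0.172. Sod2, the mitochondrial superoxide dismutase that NF-kB induces, differed by 0.09 (SE 0.05) with genotype at 6 months at a mean of 11.2. None passed the adjusted test.

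**Figure D5:**
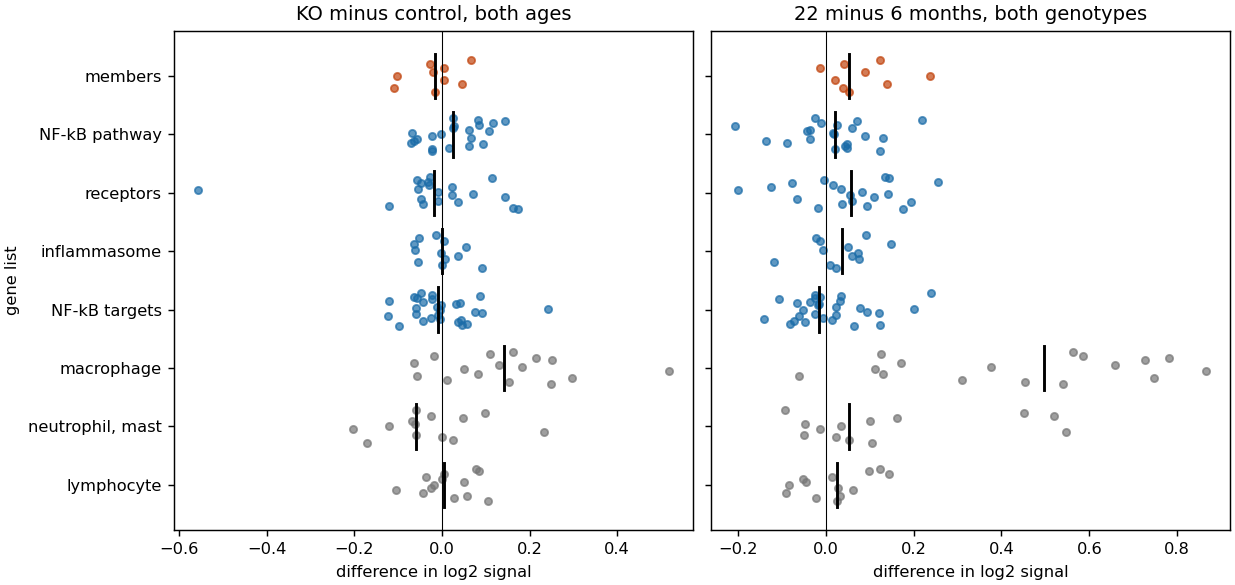
Difference in log2 signal (x axis) for Mfn2KO minus control over both ages (left) and 22 minus 6 months over both genotypes (right), with 1 point per gene and the list's median as a bar, for the 9 members, the 4 pathway lists and 3 immune cell lists. For age, the macrophage list has its median at 0.50 and the members at 0.05.

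Cell type markers moved with age, and their values stand beside the members. All 15 muscle fibre markers lay above background. Of 16 macrophage markers 12 lay above it, and Adgre1, Itgam, Fcgr1 and Cd14 did not. The log2 of their summed signal ran from 9.58 to 10.1 in young controls, from 9.49 to 10.5 in young KO, from 9.97 to 10.9 in old controls and from 10.2 to 10.9 in old KO. For age over both genotypes 15 of 16 were higher with a median of 0.50. With the block 12 of 16 had an unadjusted p under 0.05, where 11.7% of all genes did, and 1, Mpeg1, was called. Without it 9 of 16 had an unadjusted p under 0.05 and 0 were called. Of 13 neutrophil and mast cell markers, the mast cell proteases Cma1 (0.45, SE 0.09, limma adjusted p 0.0465) and Mcpt4 (0.55, SE 0.11, adjusted p 0.0467) were called higher with age with the block, and neither was without it. Of the same 13 markers 7 were at or under background, among them the neutrophil genes S100a8, S100a9 and Csf3r, while the neutrophil gene Ltf (5.39) lay above it. Of 13 T, B and NK cell markers 8 were at or under background, among them Cd3e, Cd3d and Cd3g, while Cd8a (5.22) and Cd4 (5.10) lay above it, and none was called in any comparison. Over the same comparison the members differed by at most 0.24, and the part of these markers in the values of Casp1, Tnf, Il1b and Nlrp3 was not tested. For Mfn2KO against control, 15 of the 16 macrophage markers were higher at 6 months and 12 at 22 months. Over both ages 13 were higher and 3 lower, with a median of 0.14, where 47.1% of all genes were higher. With the block 1 of 16 had a limma unadjusted p under 0.05 there, where 8.47% of all genes did. In these comparisons 0 were called.

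Markers of other cell types were followed too. Of 9 fibroblast markers, the collagen genes Col3a1 (-0.81, SE 0.10, limma adjusted p 0.00275) and Col1a1 (-1.04, SE 0.17, adjusted p 0.0290) fell with age over both genotypes, also with the block. The list as a whole did not follow them: 3 of the 9 were higher and 6 lower, with a median of -0.05. The fibroblast marker Dcn differed by 0.08 (SE 0.10). All 10 endothelial markers lay above background. With age in Mfn2KO 10 of 10 were lower with a median of -0.21, where 47.1% of all genes were higher, and 0 were called. Mfn2KO minus control at 6 months uses the same young KO mice. There 10 of 10 were higher with a median of 0.22, where 47.8% of all genes were higher, and 0 were called. With age in controls 6 were higher and 4 lower. Of 7 fat cell markers 4 were measured, and 3 lay above background. Adipoq, the hormone adiponectin of fat cells, differed with genotype by -2.93 (SE 0.81) at 6 months and by 0.94 (SE 0.81) at 22 months. The difference between these was 3.87 (SE 1.14, limma unadjusted p 0.00389, adjusted p 1.0), in the same direction as those of Tnf and Nlrp3. In that comparison 4 of 4 fat cell markers were higher, where 49.7% of all genes were. Of the 4, 3 had a limma unadjusted p under 0.05, where 1.13% of all genes did. That direction was not particular to fat cell markers. In the same comparison 12 of 13 T, B and NK cell markers and 20 of 28 genes of other tissues were higher. Of the macrophage markers 6 of 16 were higher, and of the endothelial markers 0 of 10. The log2 of the summed signal of the fat cell markers ran from 11.2 to 11.6 in young controls, from 11.1 to 11.2 in young KO, from 11.1 to 11.6 in old controls and from 11.1 to 11.5 in old KO. The part of fat cells in the values of Tnf and Nlrp3 was not tested.

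Genes whose pattern was most like a member were found by Pearson r over 16 arrays, after subtraction of the mean of each replicate number, for the 7 members above background. The arrays share their groups, and r is given as a description. The 3 closest genes of each member were taken. The closest of each is named, and for Nfkb2 and Nfkbia the next one too. Nfkb2 was closest to Bcl2l1 (r = 0.913) and Phlda1 (0.905), Rela to Ltbp3 (0.840), Relb to Tph2 (0.924), Nfkbia to A230006K03Rik (0.879) and Ddit4 (0.878). Myd88 was closest to Cep89 (0.884), Tnf to A930018O16Rik (0.893) and Il1b to Sptbn4 (0.861). Over the 21 such genes r ran from 0.824 to 0.924, and 9 of the 21 lay above background. Among those named, Tph2, A230006K03Rik, A930018O16Rik and Sptbn4 lay under it. No member was among the closest genes of another member.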

How the data were processed

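RNA of 16 quadriceps samples was measured on Affymetrix mouse arrays. Values were deposited on a log2 scale, 1 per probe set, after RMA processing by the authors in the affy package, per the submitters' processing notes, with no versions given. RMA normalizes arrays to one distribution, so values are relative to the array, and the number of arrays limits the precision. Of 45141 probe sets, 104 controls were left out, and 28898 carried 1 symbol in the platform annotation. Each gene was represented by its brightest such probe set, without a filter on level. Comparisons used limma 3.58.1 in R 4.3.3 (eBayes with trend) over all groups, two-sided, with Benjamini-Hochberg adjustment over 17097 genes. A call is an adjusted p under 0.05, and the code was tested on simulated data.

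The numbers 1 to 4 in the sample titles pair the arrays by the data alone, since each same-number pair correlated above 0.1. Pairs of different number reached up to 0.725, so the pairing into 4 numbers is not settled by these values. The fit with this block is given as an alternative. Members, lists and naming rules (for members all, for each pathway list the 3 genes of smallest p per comparison, for likeness the 3 highest r) were chosen with earlier results of these data known. Examples among the 3 genes were picked for their role. One mouse per array is stated, and p-values rest on the spread between these mice, moderated by eBayes with values of other genes. Without the block that spread includes the difference between replicate numbers, and the main fit takes no account of family. Promoter windows came from RefSeq (GRCm38.p6), and figures were drawn with matplotlib 3.10.9.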

Additional observations from a re-analysis of the deposited data

Results flagged for a closer look

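In groups of 4 mice, a mouse was singled out where its gap to the nearest of the others exceeded Dixon's 95% critical value for 4 samples. This happened in 2 of 36 groups, close to the 1 in 20 that chance gives. Myd88 in young KO mouse 1 was 4.94, against 4.74 to 4.76 in the other 3. Tnf in old control mouse 3 was 4.63, against 4.91 to 4.96 in the other 3.

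The age difference of Nlrp3 was 0.45 larger in Mfn2KO than in controls, with all 4 numbers lower with age in controls and all 4 higher in Mfn2KO. The genotype difference of Tnf was 0.24 larger at 22 than at 6 months, with opposite signs at the 2 ages in all 4 numbers. Neither passed the adjusted limma test of the difference, without the replicate block (adjusted p of 1.0 for both) or with it (0.641 for Nlrp3 and 0.673 for Tnf).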

How the results depend on the processing

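The members called numbered 0 under every alternative run, which covered all 7 comparisons except that the fit on only the groups compared covered 4. The smallest adjusted p of a member over alternatives was 0.383, with the replicate block. Differences that were called in no setting changed sign in 0 of 63 values after median centring. Under the block, a mean over probe sets or eBayes without trend the count was also 0 of 63, and 0 of 49 among genes above background. Those counts were fixed in advance and say nothing of stability. Groups are balanced over the numbers, each member has 1 probe set, and the other settings leave the differences as they are. Signs changed in 14 of 63 with family as a term, in 11 with family and the block, and in 83 of 1008 when single arrays were left out, and the causes were not tested. Members above background numbered 7, and 2 against genes of other tissues or 9 against the lower percentile of olfactory receptor genes.

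Counts over all genes moved more. For age over both genotypes 10 genes were called, and 99 with the replicate block, 0 with family, 1 with family plus the block, 24 after median centring and 5 to 13 with 1 array left out. For age in controls the count of 0 became 8 with the block, 1 with family added to it and 0 to 1 with 1 array left out. For age in Mfn2KO the count of 3 became 0 with family or with only the groups compared, 1 with family and the block and 0 to 4 with 1 array left out. For genotype at 22 months it was 0 to 1 with 1 array left out. Some settings were chosen after seeing the data, among them the runs for Nlrp3 with the block and single arrays left out. The block without number 3 gave 38, 2 and 0 genes for age over both genotypes, in controls and in Mfn2KO. Numbers 1 and 2 alone gave 19, 4 and 0, and numbers 3 and 4 alone gave 2 for age over both genotypes.

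Signal under background limits the values of Casp1 and Nlrp3, and signal close to background limits those of Tnf, Relb, Il1b and Myd88. Values of Nlrp3 and Rela also moved with the replicate number. With family added to the block, the limma unadjusted p of the Nlrp3 difference between differences was no longer under 0.05.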
